A study of Homo sapiens with 6 samples.

Results

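SOX5 and 5 other SOX transcription factor genes, SOX6, SOX13, SOX4, SOX9 and SOX12, were examined in Huh7 cells, an established human hepatoma cell line. They were chosen by gene symbol, as the gene that hosts a delivered circular RNA, its closest relatives and the SOX genes of interest in liver, and they made up 6 of the 50868 genes in the table. Total RNA was taken for sequencing 48 h after Lipofectamine 2000 transfection. A plasmid that overexpresses hsa_circ_0098181 was used for 3 libraries, and the control plasmid for 3 libraries. The paper calls this mRNA sequencing, and its methods do not describe how RNA was selected for these libraries. hsa_circ_0098181 is a closed loop of RNA made from its host gene SOX5. Total gene counts ran from 12261725 to 14138262 with overexpression and from 11130902 to 12211132 in controls, so that 3 counts, used here as the floor of detection, equalled 0.212 to 0.270 CPM (counts scaled to a library of 1e6). The labels did not say whether replicates were separate cultures, so p-values and confidence intervals measure only the spread between these libraries, which may be technical. The floor of detection covers counting error only.

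SOX proteins bind the minor groove of DNA through an HMG box and bend it, and they are sorted into groups by the sequence of that box. SOX5, SOX6 and SOX13 form the SoxD group, which pairs through a coiled coil, carries no known activation or repression domain, and acts by shaping what other factors do at shared sites. SOX4 and SOX12 belong to the SoxC group of activators found in progenitor cells. SOX9, of the SoxE group, drives cartilage formation together with SOX5 and SOX6, and in liver it marks bile duct cells and progenitors.

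The start of the HMG box shows how alike these genes are in the part that names the family. The sequences below were read from GENCODE 29 transcripts (GRCh38), 5′ to 3′ along the coding strand, and capitals mark the positions at which the 6 genes were not all identical.
SOX5: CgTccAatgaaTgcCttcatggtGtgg
SOX6: CgAccAatgaaTgcAttcatggtTtgg
SOX13: AgGccCatgaaCgcCttcatggtGtgg
SOX4: CgAccCatgaaCgcCttcatggtGtgg
SOX9: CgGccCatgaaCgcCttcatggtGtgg
SOX12: AgGccGatgaaCgcAttcatggtGtgg
Of the 27 bases, 21 were identical in all 6 genes. SOX6, SOX4 and SOX9 each had 3 bases unlike SOX5 in this stretch, SOX13 had 4 and SOX12 had 5. The stretch lies in coding exon sequence at chr12:23543284-23543310 on the minus strand for SOX5 (exon 12 of ENST00000546136.5) and at chr11:15989070-15989096 on the minus strand for SOX6 (exon 14). On the plus strand it lies at chr1:204123705-204123731 for SOX13 (exon 12), chr6:21594715-21594741 for SOX4 (exon 1), chr17:72121710-72121736 for SOX9 (exon 1) and chr20:326048-326074 for SOX12 (exon 1).

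Over 210 bases of the box, encoding 70 residues, the group structure was plain. SOX5 shared 92.9% of residues with SOX6 and 94.3% with SOX13, against 57.1% with SOX4, 57.1% with SOX12 and 51.4% with SOX9. SOX4 and SOX12 shared 88.6% of residues with each other. At the base level SOX5 was 81.9% identical to SOX6 and 83.8% identical to SOX13, and none of its 10705 distinct stretches of 31 transcript bases occurred in any of the 5 relatives. SOX4 and SOX12 had 3 such stretches in common. SOX5P1, a SOX5 pseudogene looked up after its values were seen, shared 92 stretches with SOX5 and held 0, 0 and 2 counts with overexpression and 0, 1 and 0 in controls.

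SOX5 was the only one of the 6 genes that passed the test between the groups. SOX5 (ENSG00000134532, protein coding, chr12:23529500-23951032, minus strand) held 26907, 33577 and 24906 counts with overexpression, in the order of the replicate numbers used throughout. The controls held 453, 404 and 380 counts. In CPM on normalized library sizes the values were 1905, 2396 and 2012 with overexpression, with a mean of 2104 ± 258 (SD, n = 3). The control values were 41.8, 34.4 and 31.3 CPM, with a mean of 35.8 ± 5.41 (SD, n = 3). Every overexpression library lay far above every control library, and every control library lay far above the floor of detection. SOX5 was 58.8-fold higher with overexpression (95% confidence interval 45.5 to 76.0), a log2 fold change of 5.88 (SE 0.16), with an adjusted p of 2.6e-06 in edgeR's quasi-likelihood test over all 15055 genes tested. Of all genes tested, 0.0399% passed an adjusted p of 0.05, 4 of them higher and 2 lower.

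The delivered circle has SOX5 as its host gene, and a count per gene holds any read that was assigned to it. Reads of the circle, of linear SOX5 RNA, of the plasmid's transcript and of the cell's own SOX5 therefore cannot be told apart here. Circular RNA has no poly(A) tail, and how far these libraries captured circles was not tested. In these bulk libraries a larger share of transfected cells and more RNA per transfected cell cannot be told apart either.

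SOX5 was among the highest genes by count with overexpression. With overexpression it took 0.190%, 0.242% and 0.203% of all gene counts, and the control shares were 0.00407%, 0.00344% and 0.00311%. Ranked by count it stood at 27, 18 and 24 among 21772 to 22250 genes with counts with overexpression, and at 5156, 5943 and 6308 among 21252 to 21671 such genes in controls. The coefficient of variation between replicates was 12.3% with overexpression and 15.1% in controls, close to each other in spite of the change in level.

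The other SoxD genes stayed within the spread between replicates. SOX6 (ENSG00000110693, chr11:15966449-16739591, minus strand), which also restrains embryonic globin genes in red cell precursors, had 51.5, 63.5 and 27.0 CPM with overexpression. Its control values were 45.8, 61.9 and 65.3 CPM. Overexpression replicate 3 was the lowest of the 6 libraries, the other 5 lay between 45.8 and 65.3 CPM, and the groups overlapped. SOX6 had means of 47.3 ± 18.6 and 57.7 ± 10.4 CPM (SD, n = 3 each) and a log2 fold change of -0.28 (SE 0.28, 95% confidence interval -0.93 to 0.36), which did not pass the test (edgeR adjusted p = 0.84). Its interval was the widest of the 6 genes, and without overexpression replicate 3 its log2 fold change was -0.0039.

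SOX13 (ENSG00000143842, chr1:204073115-204127743, plus strand) is a SoxD factor known from arterial walls and from T cell development. It had 94.4, 99.8 and 95.2 CPM with overexpression and 101, 86.6 and 85.5 CPM in controls. The overexpression libraries lay within the range of the controls. SOX13 averaged 96.5 ± 2.93 and 91.0 ± 8.63 CPM (SD, n = 3 each). Its log2 fold change was 0.08 (SE 0.10, 95% confidence interval -0.14 to 0.31, edgeR adjusted p = 0.86), an interval from 0.910 to 1.24 on the fold scale.

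The SoxC genes did not pass the test either. SOX4 (ENSG00000124766, chr6:21592769-21598619, plus strand, a single exon), an activator that is often high in tumours, had 274, 264 and 282 CPM with overexpression. It had 226, 256 and 275 CPM in controls, where replicate 1 was the lowest of the 6 libraries. The groups overlapped, and the means of 273 ± 9.30 and 252 ± 24.4 CPM (SD, n = 3 each) gave a fold of 1.08 (95% confidence interval 0.932 to 1.26, edgeR adjusted p = 0.82). SOX12 (ENSG00000177732, chr20:325401-330224, plus strand, a single exon), its close relative, had 78.9, 78.5 and 69.3 CPM with overexpression and 66.2, 74.3 and 66.8 CPM in controls. Overexpression replicates 1 and 2 were above all controls and replicate 3 was not. The fold for SOX12 was 1.09 (95% confidence interval 0.936 to 1.28, edgeR adjusted p = 0.81).

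SOX9 (ENSG00000125398, chr17:72121020-72126420, plus strand, 3 exons) had 157, 149 and 132 CPM with overexpression and 187, 145 and 142 CPM in controls. Control replicate 1 was the highest library, and the other 5 lay between 132 and 157 CPM. SOX9 averaged 146 ± 12.8 and 158 ± 25.2 CPM (SD, n = 3 each), a fold of 0.923 (95% confidence interval 0.753 to 1.13, edgeR adjusted p = 0.86). The sign of this difference rested on control replicate 1, without which the log2 fold change was 0.02 and the edgeR adjusted p was 0.99.

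**Figure D1:**
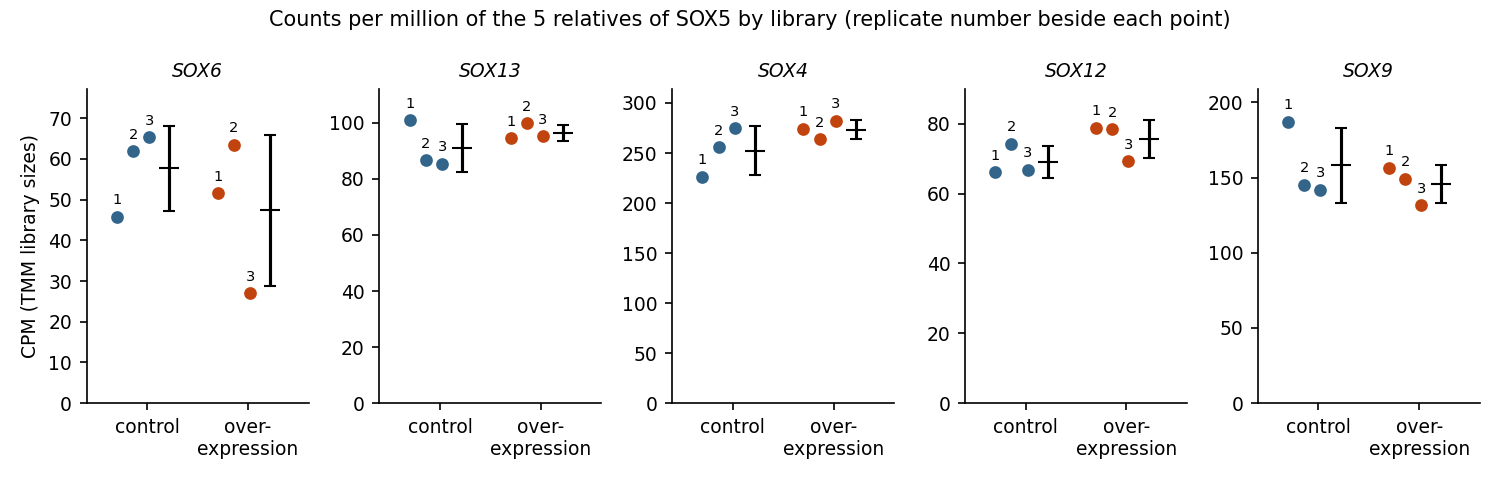
CPM of SOX6, SOX13, SOX4, SOX12 and SOX9 in each library (vertical axis from 0, points with their replicate number, blue for control and orange for overexpression), with the mean and SD of each group (bars, n = 3). The groups overlap in all 5 genes; overexpression replicate 3 is low in SOX6 at 27.0 CPM and control replicate 1 is high in SOX9 at 187 CPM.

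Across the 6 genes, 1 had groups that did not overlap, SOX5, against 12.9% of all genes tested. The 5 relatives had log2 fold changes from -0.28 to 0.13. The median absolute log2 fold change of all genes tested was 0.13. The fold intervals of SOX13, SOX4 and SOX12 together spanned 0.910 to 1.28, while that of SOX6 alone spanned 0.526 to 1.28. An exact permutation test of single genes could not go below p = 0.1 with 3 libraries against 3. By that test SOX5 reached p = 0.1, and the 5 relatives had exact p between 0.2 and 0.7.

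**Figure D2:**
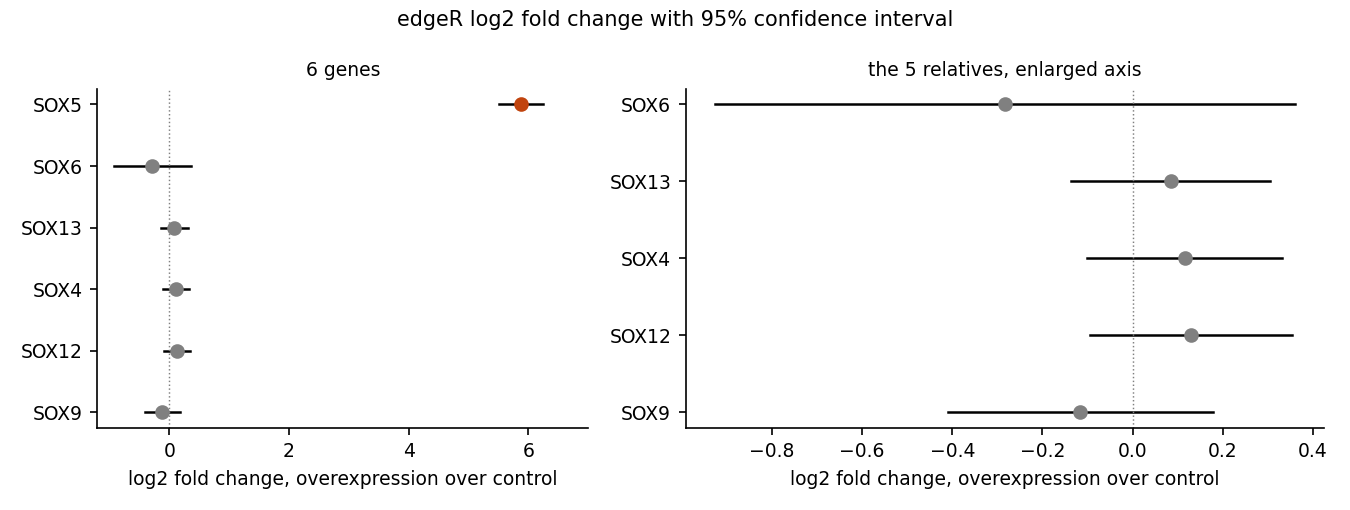
Log2 fold change of overexpression over control (horizontal axis) with its 95% confidence interval for the 6 genes, and for the 5 relatives on an enlarged axis. SOX5 lies at 5.88 and the intervals of the 5 relatives all include 0.

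The difference of SOX5 was set beside that of its relatives within libraries, as the log2 ratio of SOX5 to each relative in CPM. Gene length cancels between groups in this ratio. The log2 ratio of SOX5 to SOX13 was 4.33, 4.58 and 4.39 with overexpression and -1.26, -1.32 and -1.44 in controls, a difference of 5.77. For SOX6, the ratio was 5.19, 5.23 and 6.19 with overexpression and -0.13, -0.84 and -1.05 in controls, a difference of 6.21. In both SoxD pairs every overexpression ratio was positive and every control ratio was negative.

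The ratio to SOX4 had means of 2.94 ± 0.21 and -2.81 ± 0.35 (SD, n = 3 each), a difference of 5.74. The ratio to SOX12 differed by 5.73, with means of 4.79 ± 0.18 and -0.95 ± 0.25. For SOX9 the means were 3.84 ± 0.21 and -2.13 ± 0.06, a difference of 5.97. All 5 ratios were higher in 3 of 3 overexpression libraries than in any control. Each gave an exact two-sided permutation p of 0.1, and 0.1 after Benjamini-Hochberg adjustment over the 5 ratios, the smallest p that 3 against 3 allows. The overexpression group was given SOX5 sequence, and the same SOX5 values enter all 5 ratios. Their separation therefore repeats the difference of SOX5 and is not separate support for it.

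Levels of different genes were compared per length, in fragments per unit of transcript length and library size (FPKM). The deposited FPKM of SOX5 implied a length of 17968 bases, 2.02 times the 8885 bases of its merged exons. For SOX13 the ratio of these lengths was 1.62, for SOX6 1.14 and for SOX12 1.04, and for the SOX4 and SOX9 genes it was 1.00. Levels are therefore given on both lengths where they lead to different orders. Both are lengths of whole-gene exons, and the paper describes the circle as much shorter than either for SOX5. How many SOX5 reads came from the circle was not known here. Values of SOX5 per length with overexpression therefore hold only for these lengths and are not levels of the delivered RNA.

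In controls, SOX4 and SOX9 were the highest of the 6 genes, with deposited FPKM of 42.7 ± 4.62 and 39.7 ± 5.74 (SD, n = 3 each). SOX9 led in control replicate 1 and SOX4 in replicates 2 and 3, so their order was not set beyond the spread. SOX12 followed at 14.2 ± 1.09 FPKM and SOX13 at 7.47 ± 0.598 FPKM, each apart from its neighbours in every library. SOX6 and SOX5 were lowest, at 2.55 ± 0.492 and 1.97 ± 0.271 FPKM (SD, n = 3 each). The order of these last genes turned on the length used: on merged exon lengths SOX5 had 3.99 ± 0.548 FPKM and lay above SOX6, at 2.91 ± 0.562 FPKM, in all 3 control libraries.

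With overexpression the order was SOX5, SOX4, SOX9, SOX12, SOX13 and SOX6 in all 3 libraries on either length. SOX5 had 106, 135 and 113 deposited FPKM, or 239 ± 30.5 FPKM on the merged length (SD, n = 3). It exceeded SOX4, next in order at 47.0 ± 1.56 deposited FPKM, by 2.26, 2.96 and 2.32 times, where the control ratios were 0.0601, 0.0438 and 0.0371. On merged exon lengths SOX5 exceeded SOX4 by 4.57, 5.99 and 4.70 times, and the control ratios were 0.122, 0.0885 and 0.075. Neither set of ratios with overexpression allows for the shorter length of the circle. SOX4 lay above SOX9 in these 3 libraries, with 45.6 to 48.7 FPKM for SOX4 and 33.8 to 39.8 FPKM for SOX9. In controls SOX4 did so in replicates 2 and 3 but not in replicate 1. Whether the order of SOX4 and SOX9 differed between the groups was not tested.

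Within the SoxD group the share of SOX5 in the summed FPKM turned over, with the same limit on its length. SOX5 made up 18.3%, 16.1% and 14.8% of the summed deposited FPKM of SOX5, SOX6 and SOX13 in controls, where SOX13 was the leading SoxD gene. With overexpression SOX5 made up 91.3%, 92.3% and 92.5%. On merged exon lengths the shares were 22.8%, 20.7% and 19.2% in controls and 93.3%, 94.2% and 94.1% with overexpression.

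**Figure D3:**
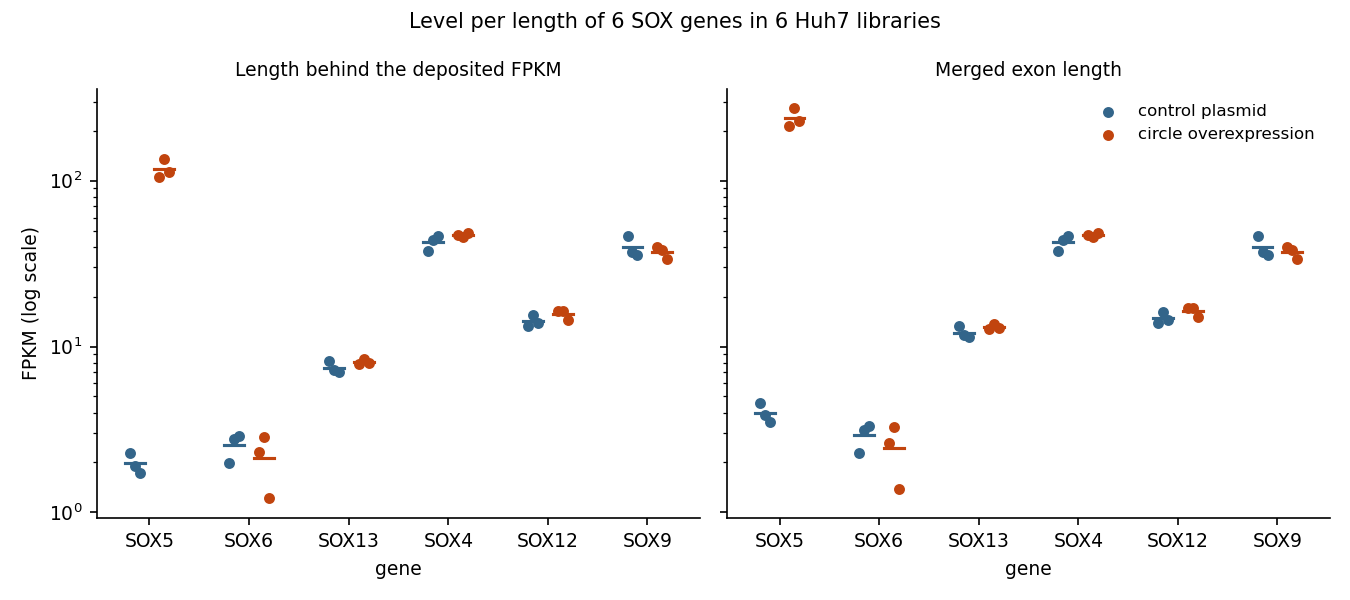
FPKM of the 6 genes in each library on a log axis, with the length behind the deposited values on the left and the merged exon length on the right (points are libraries, bars are means, blue for control and orange for overexpression). SOX5 is among the 2 lowest genes in controls and the highest with overexpression, and the groups overlap in the other 5 genes. Both lengths are those of whole-gene exons and not of the circle.

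The paper reports that the circle sponges miR-18a-3p. Its evidence included microRNA sequencing, a predicted site, a luciferase assay, precipitation with Ago2 and a rescue with a mimic. By RT-qPCR the paper also found less miR-18a-3p with the circle in Huh7 and Hep3B cells and in xenografts. None of this was examined here. Matches to the seed of miR-18a-3p were counted in the transcripts of the 6 genes. A microRNA seed pairs with its complement in a target RNA. The mature sequence is shown as given by RefSeq (GRCh38.p14, chr13:91350797-91350819, plus strand), with the seed, bases 2 to 8, in capitals, followed by the matches in SOX5 and SOX6 with the complement of the seed, AGGGCAG, in capitals.
hsa-miR-18a-3p: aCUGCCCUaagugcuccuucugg
SOX5: tgaacggcgcaAGGGCAGtttagctgatg
SOX6: ggaaaaggaagAGGGCAGtgatcaacatg
In SOX5 the match lies at chr12:23846051-23846057 on the minus strand, in the coding part of exon 2 of ENST00000546136.5, and 11 of 13 coding transcripts held it. In SOX6 it lies at chr11:16341151-16341157 on the minus strand, in the coding part of exon 2 of ENST00000396356.7, and all 8 coding transcripts held it. No coding transcript of SOX13, SOX4, SOX9 or SOX12 contained these letters.

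Such a match is common. Among 12609 tested genes with a coding transcript, 35.8% held it in the longest one, as did 50.2% of 1816 genes whose longest transcript was within 20% of the length of that of SOX5, and 57.1% of 1086 genes for SOX6. The search covered the sense strand only, and the match is a description of the sequence. The exons that make up the circle were not given in the sources used here, so whether the match in SOX5 lies inside it was not examined. Of both genes with a match, SOX6 did not pass the test, with the values given above. SOX5 counts rose in the group given a circle of SOX5 sequence, so that rise carries no information on the match.

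Genes that overlap the 6 genes were examined because the handling of strand in the counts was not given in the sources used here. RP11-437F6.1, within SOX5, held 0 counts in all 6 libraries. SOX5 ends at 24562544 in GENCODE 29, and RP11-444D3.1, which overlaps that longer span, held 5, 4 and 3 counts with overexpression and 4, 5 and 3 in controls. C11orf58, which overlaps SOX6, had 147 to 179 CPM with overexpression and 136 to 145 CPM in controls (log2 fold change 0.20, SE 0.10, edgeR adjusted p = 0.80). These counts were higher than those of SOX6 itself, and reads from the shared part cannot be told apart. SOX9-AS1, opposite SOX9, held 15 to 39 counts per library with a log2 fold change of -0.30 (SE 0.34, edgeR adjusted p = 0.86). NRSN2-AS1, opposite SOX12, held 33 to 56 counts with a log2 fold change of 0.21 (SE 0.21, edgeR adjusted p = 0.84). Both antisense genes were well below the genes they overlap.

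The rest of the SOX family was close to silent. Of 13 further SOX genes, 8 had 0 counts in all 6 libraries, which included SOX2, a pluripotency factor, SOX10, a neural crest factor, and SOX17, an endoderm factor. None of the 13 passed the filter on low counts. SOX7 held 9, 10 and 16 counts with overexpression and 5, 15 and 7 in controls, and SOX8, a SoxE relative of SOX9, held 4, 1 and 4 against 3, 2 and 6. SOX15 had at most 5 counts in a library, SOX18 at most 3 and SOX30 at most 2. These values were too few to show a difference at this depth. Among 9 listed antisense and neighbouring RNAs of SOX genes, 7 were in the table and 2 were tested. Beside SOX9-AS1 that was CASC15, downstream of SOX4, with a log2 fold change of 0.10 (SE 0.22, edgeR adjusted p = 0.93).

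A list of HMG-box relatives held the LEF and TCF group, LEF1, TCF7, TCF7L1 and TCF7L2, which carries the nuclear end of Wnt signalling. It also held HBP1, BBX and CIC, HMG-box genes outside that group. All 7 listed genes were tested and 0 passed, while 6 had negative and 1 a positive log2 fold change. The median was -0.13, where the median of all genes tested was 0.0023. Over all genes tested, 0.0399% passed and 50.49% had a positive log2 fold change. At such a share, 0 passing says little about a short list. The median of this list rested on single libraries, at -0.0030 without control replicate 1 and -0.25 without control replicate 3. TCF7L1, a repressor of the group, had 10.5, 9.42 and 8.56 CPM with overexpression and 16.1, 11.3 and 10.4 CPM in controls, a log2 fold change of -0.40 (SE 0.19, edgeR adjusted p = 0.80). Its groups overlapped. TCF7L2, a Wnt effector, had a log2 fold change of -0.23 (SE 0.20), with 21.9 to 25.3 CPM with overexpression and 37.2, 21.6 and 23.6 CPM in control replicates 1 to 3. BBX, HBP1 and CIC had log2 fold changes of -0.20, -0.11 and -0.13. Control replicate 1 was the highest library for TCF7L1, TCF7L2, BBX and CIC.

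SOX5, SOX6 and SOX9 are known as the trio that switches on cartilage matrix genes, so 18 of these were listed. Of the 18, 9 were tested and 0 passed, against 0.0399% of all genes tested. Positive log2 fold changes were found in 8 and a negative one in 1, against 50.49% positive over all genes tested. The median was 0.11, or 0.04 without control replicate 1 and 0.07 without overexpression replicate 2. COL2A1, the collagen of cartilage and the classic target of the trio, was already present in controls, with 133, 155 and 152 CPM. With overexpression it had 142, 154 and 161 CPM, a log2 fold change of 0.06 (SE 0.10, edgeR adjusted p = 0.91). The groups overlapped. COL27A1, a fibrillar collagen, had a log2 fold change of 0.04 (SE 0.10), COL9A2, a collagen on the fibril surface, 0.08 (SE 0.09), and PAPSS2, which makes the sulfate donor for proteoglycans, 0.14 (SE 0.12). SNORC, a cartilage proteoglycan, had 8.99, 5.78 and 4.20 CPM with overexpression and 4.89, 4.68 and 3.70 CPM in controls (log2 fold change 0.52, SE 0.29, edgeR adjusted p = 0.80), and its high value came from overexpression replicate 1. ACAN, HAPLN1, CNMD and UCMA had 0 counts in all 6 libraries.

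SOX4 and SOX9 accompany progenitor and bile duct genes in liver, and 13 of 16 such genes were tested. None passed, against 0.0399% of all genes tested. There were 6 positive and 7 negative log2 fold changes, against 50.49% positive over all genes tested. The median was -0.07, or -0.12 without control replicate 2 and -0.03 without control replicate 3. CD24 and KRT19, surface and keratin markers of progenitors, had log2 fold changes of 0.01 (SE 0.11) and 0.05 (SE 0.14). JAG1, a Notch ligand, had 160, 188 and 179 CPM with overexpression and 175, 184 and 240 CPM in controls, a log2 fold change of -0.19 (SE 0.13). HES1, a Notch target, had a log2 fold change of 0.21 (SE 0.12, edgeR adjusted p = 0.80), ONECUT1, a liver and bile duct factor, -0.35 (SE 0.22, edgeR adjusted p = 0.80), and ANXA4, an annexin of ductal cells, 0.01 (SE 0.12).

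Proteins that bind or regulate SOX factors were also examined, and 13 of 19 listed genes were tested. None passed, against 0.0399% of all genes tested. There were 6 positive and 7 negative log2 fold changes, against 50.49% positive over all genes tested. The median was -0.03, or 0.01 without control replicate 1. CTNNB1, which encodes beta-catenin, had 353, 383 and 384 CPM with overexpression and 323, 375 and 364 CPM in controls, a log2 fold change of 0.08 (SE 0.09). HDAC1, a histone deacetylase, had a log2 fold change of 0.12 (SE 0.09). SUPT16H and SSRP1, the subunits of the FACT histone chaperone, had log2 fold changes of -0.08 (SE 0.16) and -0.03 (SE 0.09). TRIM21 and TRIM5, both ubiquitin ligases, had log2 fold changes of -0.42 (SE 0.23) and -0.24 (SE 0.17), and neither passed the test (edgeR adjusted p = 0.80 for each).

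**Figure D4:**
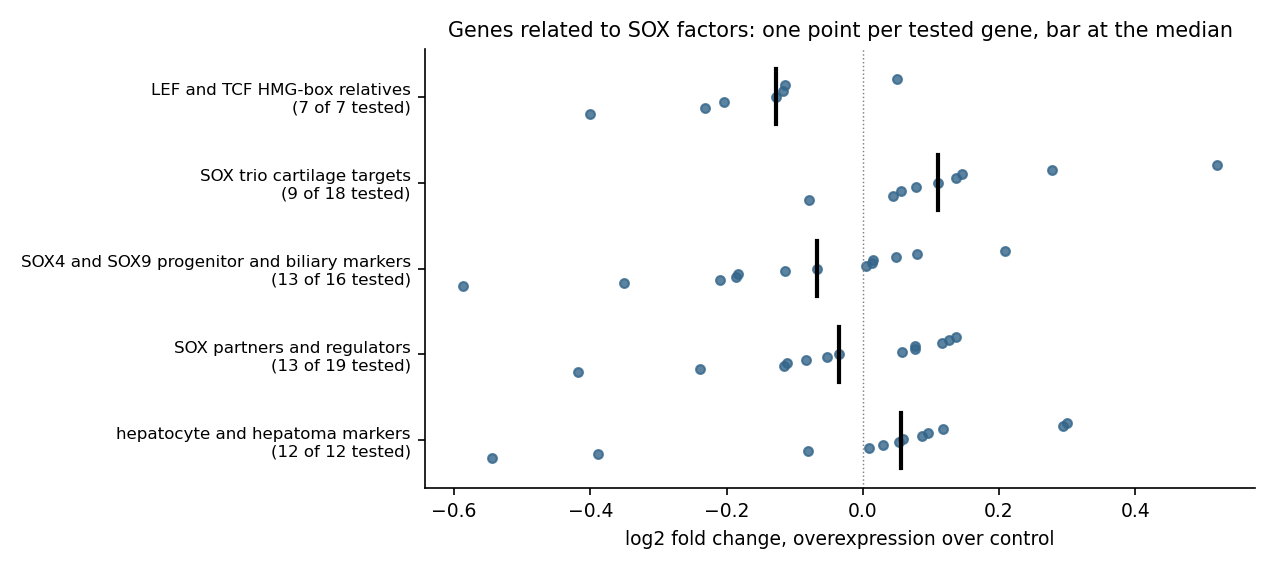
Log2 fold change of overexpression over control (horizontal axis) for the tested genes of 5 lists, with 1 point per gene and a black bar at each list's median. The medians lie between -0.13 and 0.11, and no gene shown passed an adjusted p of 0.05, against 0.0399% of all genes tested.

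The labelled cell type was checked on 12 hepatocyte and hepatoma markers, and all 12 were expressed. Their summed level was 32322 to 35020 CPM with overexpression and 31327 to 37241 CPM in controls. Of these 12 markers 0 passed the test, against 0.0399% of all genes tested. AFP, the fetal albumin of hepatoma cells, was the highest at a mean of 12400.4 CPM over the 6 libraries (log2 fold change 0.06, SE 0.10), and ALB had 4977 CPM (0.10, SE 0.11). APOB was the only gene of these lists with an unadjusted p under 0.05. It had 6595, 8846 and 9234 CPM with overexpression and 12939, 10252 and 9127 CPM in controls (log2 fold change -0.39, SE 0.17, edgeR adjusted p = 0.80), where 5.5% of all genes tested had such a p. TF, transferrin, had a log2 fold change of 0.09 (SE 0.16), and HNF4A, a hepatocyte factor, -0.54 (SE 0.27, edgeR adjusted p = 0.80), with 197 CPM in control replicate 1 and 76.2 to 114 CPM in the other 5 libraries.

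Of 4 lists of markers of other cells, 1 had summed levels that did not overlap between the groups. Of 5 chondrocyte markers 1 was tested, COL2A1, while ACAN and HAPLN1 were at 0, and the summed level was 143 to 161 CPM with overexpression and 133 to 156 CPM in controls. The 6 fibroblast markers summed to 22.8 to 25.98 CPM and 23.3 to 26.1 CPM, with 4 tested. The 5 endothelial markers summed to 54.4 to 55.6 CPM and 46.9 to 59.2 CPM, nearly all from PECAM1, with CDH5 at 0. The 5 blood markers summed to 482 to 522 CPM with overexpression and 425 to 466 CPM in controls. Nearly all of this was LYZ, whose groups did not overlap, which also held for 12.9% of all genes tested. LYZ did not pass the test (log2 fold change 0.15, SE 0.08, edgeR adjusted p = 0.80), and HBB was at 0. The part of these cells in the SOX values was not tested.

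The genes whose log2 CPM followed each SOX gene most closely over the 6 libraries were listed as a description, from 11497 genes with at least 5 CPM on average. All points share their library and its depth, and with so many genes and 6 libraries high values arise readily. The values of SOX5 differed mainly between the groups, so likeness to SOX5 largely restates that difference. For SOX5 the closest genes were DAB2IP (Pearson r = 0.998), PBX2 (0.989) and TSNAX (0.986). Of these PBX2, a homeobox factor, was among the genes that passed the test, near the threshold of 0.05 (log2 fold change 0.87, edgeR adjusted p = 0.048). PBX2 had 51.7, 52.5 and 57.6 CPM with overexpression and 31.1, 27.7 and 29.6 CPM in controls. For SOX6 they were MSANTD3 (0.999), PROSER3 (0.997) and WDR78 (0.974), and all shared the low value in overexpression replicate 3. WDR78 had 6.38 CPM in that library and 8.40 to 10.4 CPM in the other 5.

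For SOX13 the closest genes were NOMO1 (Pearson r = 0.988), TRAM2-AS1 (0.982) and AKR1D1 (0.968), and for SOX4 they were NAA20 (0.996), CDC42EP4 (0.995) and OAT (0.994). Those of SOX9 included ZFP36L1 (0.991) and RP4-592A1.2 (0.990), and both were highest in control replicate 1, as SOX9 was. Those of SOX12 were ABHD14A (0.983), RNF181 (0.977) and SAP30 (0.976). None of these genes passed the test in edgeR, with adjusted p between 0.80 and 0.88.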

How the data were processed

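Total RNA from 6 Huh7 libraries was compared, 3 with the circle plasmid and 3 with the control plasmid, grouped by sample titles. The authors deposited 1 table with whole-number counts beside FPKM values, for every gene in each library. No normalization had been applied to the counts. The submitters' processing notes name TopHat2 2.0.9 and hg38, with no role given. The counter, its use of strand and the annotation release were not given in the sources used here. Each deposited FPKM corresponded to that gene's count over a library total and 1 fixed length. A second FPKM was therefore computed on merged GENCODE 29 exons that lay inside the deposited span of each gene.

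The counts were tested with edgeR 4.0.16 in R 4.3.3 on genes that filterByExpr kept at a minimum count of 10, by glmQLFTest after TMM scaling and glmQLFit, with group alone in the model and both directions allowed. P-values had Benjamini-Hochberg adjustment over 15055 genes. Standard errors were derived from the F statistic. The biological coefficient of variation was 16.1%. CPM used TMM library sizes, and ratios and likeness used log2(CPM + 0.5). Exact permutation tests compared 3 with 3 values. The code was tested on simulated counts. Replicates were not copies, since pairs of them differed by a chi-square of 10.1 to 20.9 for each degree of freedom.

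Alternatives were scaling by RLE or by the upper quartile, DESeq2 1.42.0, no filter on low counts, a mean of at least 50 counts, limma 3.58.1 on log2(FPKM + 1) or log2(FPKM + 0.1), a replicate block, and omitting every library in turn. The genes named were the 6 SOX genes, from each list any gene that passed, up to 4 with the highest mean CPM and 2 with the lowest p, genes with counts that overlap SOX5, and the 3 genes most like each SOX gene. The 6 genes, the lists and this rule were chosen with earlier results of these data known. Genes named outside this rule were chosen after their values were seen, or as genes that overlap or are related to a SOX gene. The values of some genes that this rule or the lists name are not reported here, though they are kept in the numbers of genes.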

Additional observations from a re-analysis of the deposited data

How the results depend on the processing

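SOX5 passed in all 14 alternatives, with log2 fold changes from 5.32 on log2(FPKM + 1) to 6.003, and from 5.77 to 6.003 when single libraries were left out, and no relative of SOX5 passed in any. Over 84 values of the 6 genes, 83 kept their direction and call, and SOX9 reversed to 0.025 without control replicate 1. Leaving out single libraries gave log2 fold changes of -0.55 to -0.0039 for SOX6, 0.04 to 0.17 for SOX13, 0.04 to 0.18 for SOX4, -0.19 to 0.025 for SOX9 and 0.10 to 0.19 for SOX12, with adjusted p of the relatives from 0.67 to 0.9993 over all alternatives. Without single libraries the median of the SOX partners and regulators ran from -0.053 to 0.012, the latter without control replicate 1, and that of the hepatocyte markers from -0.0081 without control replicate 3 to 0.087. The same range was -0.25 to -0.0030 for the list of HMG-box relatives, 0.04 to 0.15 for the cartilage targets and -0.12 to -0.03 for the progenitor and biliary markers. The SOX5 ratio differences stayed between 5.59 and 6.48.

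Over all genes, DESeq2 called 8 higher and 20 lower, against 4 and 2, and without single libraries edgeR called 1 to 7 higher and 2 to 9 lower. The cause was not tested. Of the 6 libraries, leaving out overexpression replicates 1, 2 or 3, or control replicates 1 or 3, gave 2, 7, 2, 2 and 1 higher, and leaving out overexpression replicates 2 or 3 or control replicate 2 gave 9, 8 and 6 lower. Deviations of same-numbered libraries from their group means correlated at -0.04, -0.02 and -0.03 over all genes tested, and gave no sign of pairing. Whether same-numbered libraries were made together was not known. With a replicate block, 2 genes were called higher and 2 lower, and the log2 fold changes were 5.88 for SOX5, -0.34 for SOX6, 0.09 for SOX13, 0.12 for SOX4, -0.11 for SOX9 and 0.13 for SOX12. With 3 libraries a group, differences of the relatives inside their intervals could not be shown, and the lists' low-count genes were not testable at this depth.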

Other observations

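The genes around SOX5 on chromosome 12 that are named here did not pass the test. Within 1500000 bases, ETNK1, an ethanolamine kinase, had 132, 129 and 137 CPM with overexpression and 120, 123 and 120 CPM in controls (log2 fold change 0.13, SE 0.08, edgeR adjusted p = 0.80). BCAT1, a branched-chain amino acid transaminase, had 286, 295 and 294 CPM with overexpression and 264, 264 and 281 CPM in controls (log2 fold change 0.11, SE 0.08, edgeR adjusted p = 0.80). Both had groups that did not overlap, with small differences, and 12.9% of all genes tested did so in either direction. C2CD5 had a log2 fold change of -0.13 (SE 0.10) and CMAS one of 0.06 (SE 0.11), and their groups overlapped.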
